A study of Caenorhabditis elegans with 2 samples.

Results

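The genes described here are 10 Caenorhabditis elegans genes of the DREAM complex and the synMuv classes, out of 19973 nuclear protein-coding genes, and the question is where the transcription factor DVE-1 was found at them. They were listed by name: lin-54, lin-35, lin-9, lin-37, lin-52, lin-53, efl-1, dpl-1, lin-15B and hpl-2. The list was chosen by its biology, with earlier results of these data known. It also rested on 1 measured value, the strong promoter peak that lin-54 shares with rpl-12 in these data. The presence and strength of that peak are therefore a description only, also where lin-54 enters a count of members. Counts over the other members are descriptions as well. DVE-1 is a SATB-related homeodomain protein, and the DNA bound to it was recovered by chromatin immunoprecipitation with an antibody against GFP and sequenced. The source was whole L4 larvae (the last larval stage), hermaphrodites of strain OP398, which carries the unc-119(tm4063) mutation on chromosome III and the transgene wgIs398, which adds DVE-1 tagged at its C-terminus with GFP-FLAG. There was 1 group with 2 biological replicates from separate biosamples, both of this 1 transgenic line. Whole animals were used, so the cells in which a peak arose cannot be told apart.

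DREAM is a repressor complex in which an E2F-DP heterodimer and a retinoblastoma-like pocket protein are joined to the MuvB core. It holds cell cycle genes and, in the worm soma, germline genes down. The synMuv genes are named for the multivulva animals that appear when a class A and a class B gene are lost together, and the genes of the worm DREAM complex belong to class B. Among the members, lin-35 encodes the pocket protein, efl-1 the E2F subunit and dpl-1 the DP subunit. The MuvB core comprises lin-9, lin-37, lin-52, the histone-binding WD40 protein of lin-53 and the DNA-binding subunit of lin-54. The class B genes lin-15B, for a THAP domain protein, and hpl-2, for a heterochromatin protein of the HP1 family, lie outside the complex.

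In 7 of the 10 genes at least 1 summit of the optimal peak list fell between 2000 bp upstream of the most distal annotated 5' end and the 3' end of the gene. The optimal list is the authors' set of 7262 peaks that passed a threshold on reproducibility. These peaks are also the 7262 strongest of 30000 regions in the list of both replicates pooled, down to a signal of 34.7. A place in it therefore follows pooled signal and does not show that a given peak was alike in both replicates. The 7 include lin-54, which was listed for its peak. The same rule held for 5768 of 19973 protein-coding genes (28.9%). All 3 remaining members, lin-37, dpl-1 and hpl-2, had only weaker regions, outside the optimal list. The same 7 genes had a summit in a narrower promoter window, from 1000 bp upstream to 200 bp downstream of any annotated 5' end, where 21.7% of all protein-coding genes had one. They also had one among the optimal peaks stronger than the median peak, against 17.5% of all protein-coding genes. In all, 13 optimal summits lay in the windows, with 3 each at lin-9 and lin-52, 2 each at lin-54 and lin-35, and 1 each at lin-53, efl-1 and lin-15B. Members had longer windows than other genes, with a median of 4996 bp against 4027 bp over all protein-coding genes. When all genes were put into 4 equal groups by window length, all 4 members of the longest group had an optimal summit, against 40.9% of all genes in it. In the 3 shorter groups 3 of 6 members had one, and the shares of all genes lay between 21.4% and 30.6%.

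**Figure D1:**
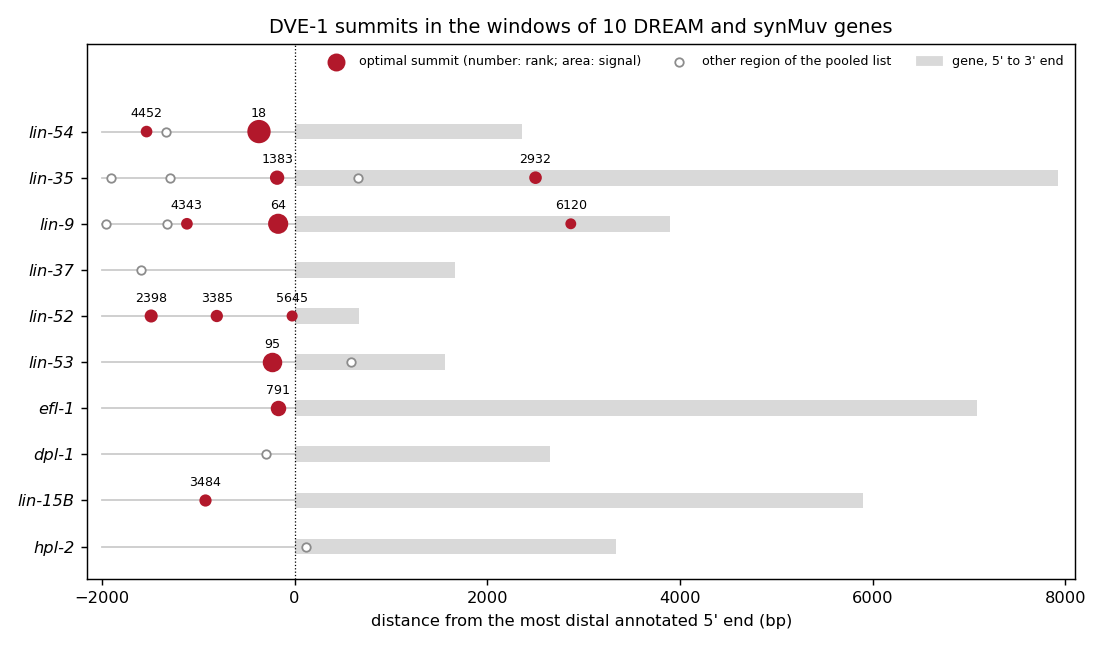
Each row is 1 gene, with distance in bp from its most distal annotated 5' end on the horizontal axis and the gene as a grey bar. Filled points are optimal summits (the number is the rank in the optimal list, the area follows the deposited signal) and open points are other regions of the pooled list. The 3 strongest summits, of ranks 18, 64 and 95, lie 369, 170 and 236 bp upstream of lin-54, lin-9 and lin-53, and lin-37, dpl-1 and hpl-2 have open points only.

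The sequences under the strongest summit of 5 members are shown because they are the DNA at the centre of these peaks and because sequence elements known for DREAM occur in them. They run 5' to 3' along the member gene, centred on the summit before cutting, were read from the RefSeq genome of the ce11 build and are cut where an annotated exon begins, as at lin-54. Their positions are chrIV:13240652-13240824 for lin-54 (plus strand), chrIII:8904152-8904450 for lin-9 (minus strand), chrIII:9826089-9826387 for lin-52 (minus strand), chrV:16965694-16965992 for efl-1 (minus strand), chrX:15725044-15725342 for lin-15B (plus strand). Capitals mark the element that LIN-54 is known to bind (TTTGAA or TTCGAA), forms of the E2F element (TTTCCCGC, TTTGGCGC or TTTCGCGC) and GAGACGCAG, a sequence frequent at peaks of this experiment, each on either strand. The summit is base 24 of the lin-54 sequence and base 150 of the others.
lin-54: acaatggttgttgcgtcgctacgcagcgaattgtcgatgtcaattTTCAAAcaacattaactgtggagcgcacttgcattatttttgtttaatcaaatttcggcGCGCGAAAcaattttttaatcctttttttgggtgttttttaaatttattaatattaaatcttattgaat
lin-9: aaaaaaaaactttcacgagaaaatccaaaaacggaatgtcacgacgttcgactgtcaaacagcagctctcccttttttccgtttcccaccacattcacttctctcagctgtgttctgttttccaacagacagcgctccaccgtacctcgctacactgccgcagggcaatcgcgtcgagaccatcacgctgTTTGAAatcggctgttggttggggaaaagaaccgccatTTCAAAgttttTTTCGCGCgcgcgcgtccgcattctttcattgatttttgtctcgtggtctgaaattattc
lin-52: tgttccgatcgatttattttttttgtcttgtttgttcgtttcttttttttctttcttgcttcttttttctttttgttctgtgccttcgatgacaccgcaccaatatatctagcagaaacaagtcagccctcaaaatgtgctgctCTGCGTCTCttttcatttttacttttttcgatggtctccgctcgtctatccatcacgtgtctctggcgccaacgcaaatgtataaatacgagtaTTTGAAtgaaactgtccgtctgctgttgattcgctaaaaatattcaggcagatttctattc
efl-1: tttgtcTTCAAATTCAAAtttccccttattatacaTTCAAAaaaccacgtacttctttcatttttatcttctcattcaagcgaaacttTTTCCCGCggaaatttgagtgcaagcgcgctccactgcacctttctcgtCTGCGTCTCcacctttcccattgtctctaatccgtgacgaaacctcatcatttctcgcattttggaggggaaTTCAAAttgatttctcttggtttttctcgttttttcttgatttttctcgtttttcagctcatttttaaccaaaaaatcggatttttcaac
lin-15B: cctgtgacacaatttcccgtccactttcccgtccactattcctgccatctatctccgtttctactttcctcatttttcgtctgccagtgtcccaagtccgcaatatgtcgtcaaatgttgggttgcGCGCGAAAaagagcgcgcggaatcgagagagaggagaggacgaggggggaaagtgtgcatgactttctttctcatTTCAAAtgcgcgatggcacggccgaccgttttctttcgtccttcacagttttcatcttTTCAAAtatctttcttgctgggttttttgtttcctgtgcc

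Singly, the E2F forms TTTCCCGC, TTTGGCGC and TTTCGCGC were present within 150 bp of 2, 1 and 3 of the 13 summits. Among all optimal summits the shares were 2.29%, 1.05% and 1.43%. Counting the forms together was chosen after seeing the data. An E2F element in any of these forms was present within 150 bp of 6 of the 13 summits. Of all 7262 optimal summits 334 (4.60%) had one. Among the 4002 optimal summits in promoter windows 5.15% had one, and among flanks centred 1000 bp to each side of the optimal summits 2.89%. The 6 were the strongest summits in the windows of lin-54, lin-9, lin-53, efl-1 and lin-15B and the summit 807 bp upstream of lin-52. The summits at lin-54 and lin-52 were nearer to rpl-12 and ZK632.9, and the one at lin-53 lay about as near to nra-2. Only efl-1 and lin-15B had theirs within 75 bp of the summit, where 2.88% of all optimal summits had one. The LIN-54 type element was common everywhere, at 9 of the 13 summits, 60.8% of all optimal summits and 66.4% of flanks. The sequence GAGACGCAG was found at 2 of the 13, the strongest summits of efl-1 and lin-52, against 9.96% of all optimal summits. The GATA element TGATAAG, a site of the factors that drive intestinal genes, was found at 1 of the 13, the summit inside lin-35, against 25.6% of all optimal summits and 1017 of 14524 flanks. A match of letters is a description and does not show that a factor binds there. The GC content within 150 bp had a median of 38.2% at the 13 summits, where it reached 48.5%, and 37.2% at all optimal summits. Within 75 bp the medians were 43.0% and 39.7%, and 35.8% in flanks. Whether the E2F matches follow base composition was not tested.

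The peak between lin-54 and rpl-12 was the strongest, at rank 18 of 7262 with a deposited signal of 407, where the median optimal peak had 64.7. It spanned 13240541 to 13240826 on chromosome IV, with its summit in the 392 bp between these genes, which are transcribed away from each other, and with one edge inside rpl-12. The summit was 369 bp upstream of lin-54, but only 24 bp upstream of rpl-12, a gene for a large-subunit ribosomal protein, so the peak cannot be assigned to lin-54. The signal was 172 in replicate 1 and 236 in replicate 2, with ranks of 26 and 16 in lists of 30000 regions each. Each list has a scale of its own, so values were divided by the replicate's median over the optimal peaks found in both, and the relative signal was 5.83 in replicate 1 and 6.18 in replicate 2 (6.01 ± 0.25, SD, n = 2). The summits of both replicates were 2 bp apart. A second optimal summit of the window, 1536 bp upstream of lin-54 at rank 4452, was 94 bp upstream of tag-115, which lies beyond rpl-12, and had relative signals of 0.76 and 0.87.

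Next in strength was the peak of lin-9, at rank 64 with a signal of 285 (chromosome III, 8904165 to 8904416). Here the summit was 170 bp upstream of lin-9 and 1314 bp from the divergent gene unc-32, which encodes a subunit of the vacuolar ATPase, and no other protein-coding 5' end was nearer. The signal was 119 in replicate 1 and 166 in replicate 2, at relative signals of 4.02 and 4.34 (4.18 ± 0.23, SD, n = 2), and their summits were 8 bp apart. The other 2 summits of the lin-9 window were weaker than the median optimal peak. One, at rank 4343, was 1117 bp upstream of lin-9 and 367 bp upstream of unc-32, and differed between replicates, with signals of 5.91 and 37.8. Replicate 1 also had a region of signal 17.4 whose summit was more than 100 bp away and so was not matched. The other, at rank 6120, lay in an intron of lin-9, 2867 bp from the 5' end, with relative signals of 0.51 and 0.56.

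The lin-53 peak followed at rank 95 with a signal of 263. It spanned 9619870 to 9620113 on chromosome I and lay between lin-53 and nra-2, which are transcribed away from each other. The summit was 236 bp upstream of lin-53 and 231 bp upstream of nra-2, so neither gene is nearer by a margin that the replicates resolve, since their summits were 40 bp apart. Its signal was 110 in replicate 1 and 154 in replicate 2, at relative signals of 3.71 and 4.02 (3.87 ± 0.22, SD, n = 2). These 3 strongest peaks held ranks of 16 to 141 in both replicates. The next optimal summit upstream of lin-53, 6319 bp away, was the peak of hsr-9 and rps-19 at rank 14.

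Of the genes for the E2F-DP heterodimer and the pocket protein, efl-1 and lin-35 had peaks of intermediate strength close to their 5' ends. The gene of the DP subunit, dpl-1, had no optimal summit. The efl-1 peak held rank 791 with a signal of 141 and covered chromosome V from 16965774 to 16965916. From summit to 5' end it was 168 bp, and the divergent gene fbxa-90, of the F-box family, was 971 bp away. Its signal was 74.8 in replicate 1 and 64.9 in replicate 2, at relative signals of 2.53 and 1.70 (2.12 ± 0.59, SD, n = 2). This peak stood alone: the next optimal summits were 296995 bp upstream of the efl-1 5' end and 141672 bp past its 3' end, whereas the median distance between neighbouring optimal summits was 4596 bp. Of the 7256 such distances, 4 were at least as long as the one upstream of efl-1, itself included. At lin-35 the summit was 181 bp upstream (chromosome I, 5807470 to 5807618) at rank 1383 with a signal of 113, and 237 bp upstream of the divergent gene vps-51, which encodes a vesicle tethering protein. It had signals of 55.1 in replicate 1 and 58.2 in replicate 2, at relative signals of 1.86 and 1.52 (1.69 ± 0.24, SD, n = 2). A second summit of lin-35, at rank 2932, was in an intron 2501 bp from the 5' end and 208 bp upstream of C32F10.4, a gene of the opposite strand within lin-35. Its relative signals were 0.90 and 1.31, and the replicates' summits were 103 bp apart.

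The summits in the lin-52 window formed a row along genes of the same strand. LIN-52 is a small MuvB subunit that in human cells makes contact with the pocket protein. Its gene starts 126 bp after the end of ZK632.9, and the strongest summit, at rank 2398 with a signal of 84.2, was 1488 bp upstream of lin-52 and 806 bp upstream of ZK632.9 (chromosome III, 9826165 to 9826306). Replicate 1 had 51.4 and replicate 2 had 35.4 there, at relative signals of 1.74 and 0.93. The next, at rank 3385, was 807 bp upstream of lin-52 and 125 bp upstream of ZK632.9, with relative signals of 1.17 and 0.94. Only the weakest, at rank 5645, was nearest to lin-52, 25 bp upstream of its distal 5' end, with signals of 6.89 in replicate 1 and 26.9 in replicate 2. Replicate 1 had a stronger region with a signal of 27.7 just beyond the matching distance of 100 bp, and with a distance of 200 bp the mean relative signal was 0.82 in place of 0.47.

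At lin-15B the only summit was 930 bp upstream (chromosome X, 15725011 to 15725374), at rank 3484 with a signal of 66.4. It had signals of 29.2 in replicate 1 and 44.1 in replicate 2, at relative signals of 0.99 and 1.16 (1.07 ± 0.12, SD, n = 2), close to the median optimal peak. The upstream neighbour ZK662.5, on the same strand, ended 2271 bp before lin-15B, and no other protein-coding 5' end was within 2000 bp of the summit. The class A gene lin-15A, which follows lin-15B on the same strand with 58 bp of overlap, had no optimal summit in its own window.

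The remaining 3 members had no optimal summit. The highest pooled region of dpl-1 was 300 bp upstream at rank 10386 of 30000 with a signal of 22.7, below the lowest optimal peak at 34.7. Both replicates had a region there, with signals of 11.2 and 10.9. The whole of dpl-1 lies within T23G7.2, a gene of the opposite strand. For lin-37 the highest pooled region was 1591 bp upstream at rank 11923 with a signal of 19.3, and the gene begins 60 bp after the end of ZK418.5 on the same strand. At hpl-2 the highest was 116 bp inside the gene at rank 19088 with a signal of 10.6. Replicate 1 had no region in the hpl-2 window and replicate 2 had 2. That gene begins 93 bp after the end of rnf-113 on the same strand, and the nearest optimal summit upstream was one of the strongest of all, at rank 5 with a signal of 605 (chromosome III, 10759073 to 10759434). It was 3713 bp upstream of hpl-2, outside the window, and belonged by position to tasp-1, 64 bp away, and K01G5.10, 721 bp away.

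The weakest optimal peak in the windows was the one in the lin-9 intron, with a signal of 41.5, and the strongest region just outside the optimal list was 654 bp inside lin-35, with a signal of 33.0 at rank 7601. By distance, the farthest upstream summit counted was the one at 1536 bp from lin-54, and the nearest not counted was 2664 bp upstream of lin-52, at rank 4276, where ZK632.10 begins 236 bp away. Past the 3' ends the nearest was 330 bp beyond lin-9, at rank 6829.

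**Figure D2:**
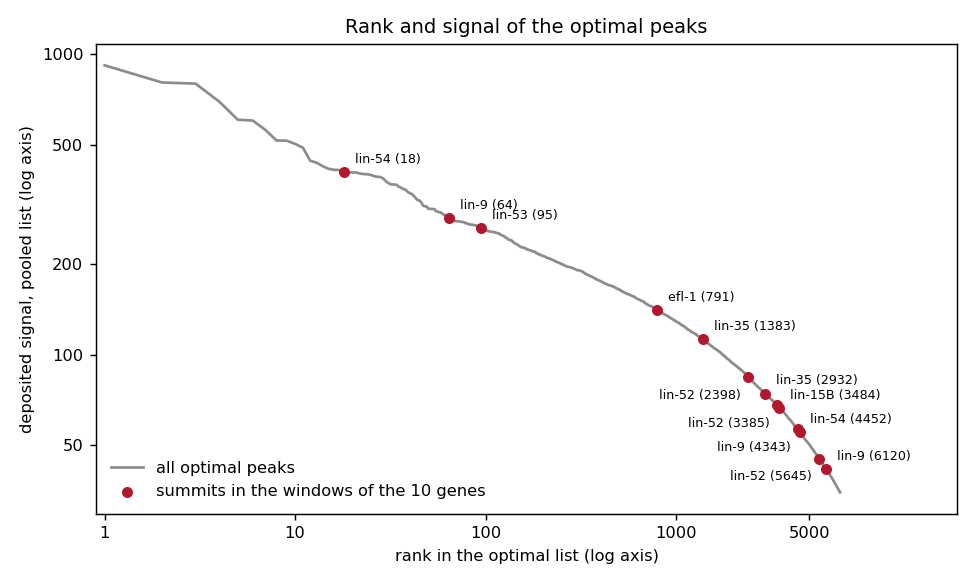
The deposited signal of the pooled list (vertical, log axis) is plotted against rank (horizontal, log axis) for the 7262 optimal peaks, with the 13 summits in the windows of the 10 genes as red points with gene and rank. The points run along the whole curve, from rank 18 at lin-54 to rank 6120 at lin-9, and 9 of them lie above the median signal of 64.7.

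The members differed in how their 5' ends face their neighbours. All 5 members with a divergent protein-coding neighbour (lin-54, lin-35, lin-9, lin-53 and efl-1) had a promoter summit, against 26.9% of the 8421 protein-coding genes so arranged. Among these 5, the summit of lin-54 was fixed beforehand, since the gene was listed for it. Of the 3 that begin within 200 bp of the end of a gene on the same strand (lin-37, lin-52 and hpl-2), only lin-52 had one, against 16.8% of 1876 such genes. A limit of 200 bp was set after the values were seen. The overlapped gene dpl-1 had none, and 18.0% of 1391 overlapped genes had one. The only member with a longer gap to a gene on the same strand, lin-15B, had one, against 18.1% of 8280 such genes. Of the 13 summits, 6 were nearest to a 5' end of the member and 7 to that of another protein-coding gene. With each summit given only to the nearest 5' end, 5 of the 10 members kept one, namely efl-1, lin-15B, lin-35, lin-52 and lin-9, and lin-54 and lin-53 did not. By that rule 21.5% of all protein-coding genes had one.

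Both replicates had a region within 100 bp of each of the 13 summits, as at 94.0% of all optimal peaks. Among the 7262 strongest regions of both replicates were 10 of the 13, beside 71.6% of all optimal peaks. The exceptions were the lin-9 summits at ranks 4343 and 6120 and the lin-52 summit at rank 5645. Each lacked a matched region among the strongest of replicate 1 only. For the lin-9 summit at rank 4343 and the lin-52 summit this depends on the 100 bp match. Within 200 bp, replicate 1 had regions at ranks 7086 and 4004 of its own list, both among its strongest 7262. Relative signal was higher in replicate 1 at 4 summits and in replicate 2 at 9. The log2 ratio of replicate 1 to replicate 2 was between -0.54 and 0.57 at 10 summits, within the SD of 0.66 over all optimal peaks. Outside that range were the lin-9 summit at 1117 bp (-2.31), the lin-52 summit at 25 bp (-1.60) and the lin-52 summit at 1488 bp (0.91). The values at lin-9 and at 25 bp from lin-52 depend on the matching distance of 100 bp. With 200 bp, where replicate 1 is matched to its stronger neighbouring region, the lin-9 ratio was -0.75, and the lin-52 ratio turned to 0.41, within the SD, with relative signals of 0.94 in replicate 1 and 0.70 in replicate 2. The order of the 3 strongest, lin-54, lin-9 and lin-53, was the same in both replicates, but the replicates of lin-9 and lin-53 met at a relative signal of 4.02, and those of efl-1 and lin-35 overlapped. All 13 carried the highest -log10 q value of the pooled list (4.27), as did every optimal peak, so that value does not rank them.

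**Figure D3:**
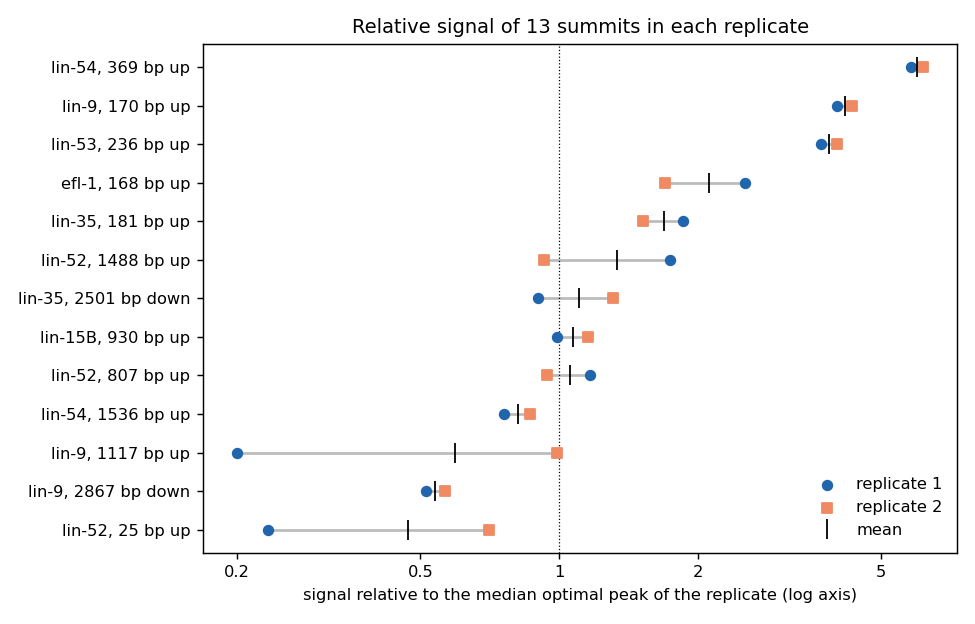
The relative signal in each replicate (horizontal, log axis, 1 being its median optimal peak) is shown for the 13 summits, named by gene and distance from its most distal 5' end, with replicate 1 as circles, replicate 2 as squares and the mean of both as a bar. The strongest summit of each of lin-54, lin-9 and lin-53 lies above 3.7 in both replicates. The values of the lin-9 summit at 1117 bp and the lin-52 summit at 25 bp lie far apart when matched within 100 bp.

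Other genes of these pathways had optimal summits in their windows to different degrees, beside 28.9% of all protein-coding genes. These lists too were written with earlier results of these data known, so their counts are descriptions. The median window of a list was between 5003 bp and 10019 bp, against 4027 bp over all protein-coding genes. Of 15 other class B synMuv and NuRD genes 8 had one. Among them rba-1, the paralog of lin-53, was counted through the lin-53 peak, 1889 bp upstream of it. The zinc finger gene lin-13 (rank 1210) and lin-36 (rank 1568, 221 bp upstream) had their own. The window of mep-1 held 4 summits, and a promoter window of mep-1 held at least 1. The strongest of the 4 (rank 1488) was nearer to the 5' end of gfl-1, which had no optimal summit in its own window. Neither let-418 nor hda-1, for a remodeller and a deacetylase of NuRD, had one. In the same list, lin-40 (rank 2440) and chd-3 (rank 3086) did. Of 4 class A genes lin-38 (rank 2650, 196 bp upstream) and lin-56 (rank 5292) had one. Of 7 genes listed for class C and the TIP60 acetyltransferase complex, 5 had one, with epc-1 at rank 716 and relative signals of 2.24 and 2.15. The ATPase genes ruvb-2 (rank 885) and ruvb-1 (rank 902) followed, and the strongest summit of mys-1 (rank 4885) had no match within 100 bp in replicate 2.

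Of 15 genes of the G1 cell cycle and its E2F partners 8 had a summit. The kinase inhibitor gene cki-2 had the strongest (rank 519, 1362 bp upstream), followed by the F-box gene lin-23 (rank 683), the cyclin D gene cyd-1 (rank 783, 165 bp upstream) and the cyclin E gene cye-1 (rank 1813, nearer to pqn-21). In DNA replication, a process under E2F control in many animals, 5 of 15 matched genes had one, beside 28.9% of all protein-coding genes. These were pcn-1, the gene of the sliding clamp (rank 272, 280 bp upstream), mcm-4 of the replicative helicase (rank 1717, 143 bp), orc-2 (rank 2159, nearer to cyn-4), cdt-1 (rank 5018) and rnr-1 (rank 6943). The rnr-1 summit differed between replicates, with relative signals of 0.16 in replicate 1 and 0.79 in replicate 2. The vulval EGF and Ras pathway, which the synMuv genes are known to restrain, had summits at 8 of 16 genes, but in promoter windows at 3 of 16, beside 21.7% of all protein-coding genes. Its strongest were at let-60, the Ras gene (rank 614, nearer to ZK792.12), the MAP kinase gene mpk-1 (rank 696), the adaptor gene sem-5 (rank 815) and the ETS factor gene lin-1 (rank 1365). The median window of these 16 genes was 10019 bp. The gene of the EGF ligand, lin-3, had no optimal summit.

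**Figure D4:**
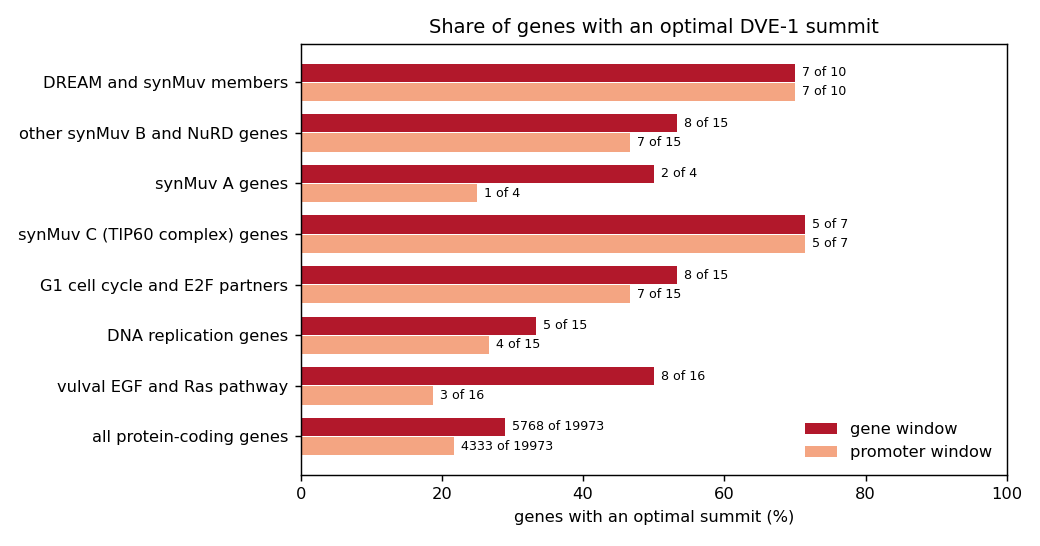
Bars give the percentage of genes with an optimal summit in the gene window (dark) and in a promoter window (light) for the 10 members, 6 lists of pathway genes and all 19973 protein-coding genes, with counts beside them. The members stand at 7 of 10 in both windows and the class C and TIP60 complex genes at 5 of 7 in both, while the vulval pathway stands at 8 of 16 and 3 of 16.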

How the data were processed

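Peak lists on the ce11 assembly were used, as narrowPeak files without header. For each replicate and for the pooled replicates the authors deposited a relaxed list of 30000 regions, made per the deposited text from the sample's alignment and 1 control alignment that all lists share, and an optimal list, thresholded by the irreproducible discovery rate. Which aligner, peak caller and threshold they used is not given in the sources used here. The control was not analysed here, and both replicates would carry any local error in it. Each list has its own scale for the deposited signal (column 7), and the deposited -log10 q value has many ties. The lists hold no read counts, so the depth is unknown. The lists on ce10 were not used.

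Summits were compared with Ensembl release 115. A gene window ran from 2000 bp upstream of the most distal 5' end to the 3' end. A replicate's value is its strongest region with a summit within 100 bp. No test was run, since there is 1 condition and the members and lists were chosen with earlier results of these data known. The genes named are the members, genes near their summits and up to 4 genes per pathway list with the strongest summit. Further named after their values were seen were rnr-1, let-418, hda-1, lin-40, chd-3, lin-3 and lin-15A. The symbol cdc-45 did not match the annotation. Window rules were checked on planted summits. Python 3.11.15, numpy 2.4.6, pandas 2.3.3 and matplotlib 3.10.9 were used.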

Additional observations from a re-analysis of the deposited data

How the results depend on the processing

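Of 98 alternative values 76 stayed close to those reported, within 1.5 times for a count or share and within the SD of both replicates for a signal. A signal whose replicates differ passes more easily. The lin-9 summit at 1117 bp counts as close at 0.59 and, with 200 bp, 0.79, since its SD was 0.56. Many matches within 50 or 200 bp also returned the same region as within 100 bp. The number of members with a summit, beside the share of all protein-coding genes, was 7 with windows from 1000 bp upstream (24.7%) and 6 from 500 bp upstream (21.5%). It was 7 with only the optimal peaks stronger than the median (17.5%), 5 with nearest 5' ends only (21.5%) and 10 with the whole pooled list (47.6%). With the strongest regions of 1 replicate it was 7 without replicate 1 (29.2%) and 7 without replicate 2 (28.7%). From 500 bp upstream there were 8 summits at members. Of 15 other class B and NuRD genes 3 had one, beside 21.5% of all protein-coding genes. Of 15 G1 genes 4 had one, and of 16 vulval pathway genes 4. Summits at members numbered 23 in the whole pooled list and 6 by nearest 5' end. With the stronger peaks 1 class A, 3 class C and TIP60 complex, 3 replication and 5 vulval pathway genes had one, and with the whole pooled list 10 replication and 13 vulval pathway genes. Leaving out each replicate gave 1 and 2 class A genes. With matching within 200 bp the lin-52 summit at 25 bp had a mean relative signal of 0.82 and was higher in replicate 1 in place of replicate 2, and 11 of the 13 log2 ratios lay within the SD in place of 10. With 50 bp, 5 of the 13 summits had no value and are not among the 98. Within 75 bp of the summits, 5 matched TTTGAA, 1 TTTCCCGC, 0 TTTGGCGC, 1 TTTCGCGC, 0 TGATAAG and 2 any E2F form; counting the forms together was chosen after seeing the data. The cause of these shifts was not tested. Since depth is unknown, a missing peak shows only that no region passed the authors' threshold.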
